A study of Mus musculus with 2 samples.

Results

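This report describes 34 cell cycle genes of the mouse, chosen by symbol and divided by phase, in the non-muscle cells of the heart. The 34 members are among 31053 genes in the tables, and all 34 were found there under 1 entry each. They comprise 14 S phase members (Mcm2, Mcm3, Mcm4, Mcm5, Mcm6, Mcm7, Pcna, Rrm1, Rrm2, Tyms, Tk1, Hells, Uhrf1 and Gins2) and 20 mitotic members (Mki67, Top2a, Birc5, Ccnb2, Cdk1, Ube2c, Cenpf, Nusap1, Prc1, Ccna2, Ccnb1, Aurka, Aurkb, Bub1, Bub1b, Tpx2, Kif11, Kif20a, Kif23 and Plk1). Their levels were compared between hearts of db/+ mice and hearts of db/db mice given 1% salt, in barcodes classed as endothelial, fibroblast, mural or endocardial by marker transcripts.

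The db allele is a mutation of the leptin receptor gene. Mice with 1 copy (db/+) serve as lean controls, and mice with both copies (db/db) become obese and diabetic. The series title names the db/db mice with salt as a model of HFpEF, heart failure with preserved ejection fraction. The hearts were from males, 4 per genotype. No salt is named in the labels of the db/+ library. Age, the length of the salt treatment and the pooling of hearts were not given in the sources used here. Genotype and salt differ together between the libraries and cannot be told apart. Both suspensions had been depleted of cardiomyocytes by filtering and of CD45+ leukocytes with magnetic beads.

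A dividing cell copies its DNA in S phase and separates the copies in mitosis. S phase members unwind DNA, supply nucleotides or keep chromatin marks during replication, and many of their genes are regulated by E2F factors. Mitotic members condense chromosomes, build the spindle or time the exit from mitosis, and many of their genes are regulated by the DREAM and MuvB complexes through CHR elements and by NF-Y through CCAAT boxes. Most endothelial cells and fibroblasts of an adult heart are quiescent.

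Each group was 1 library, so the comparison of groups has no replicate check, no test was possible, and every interval covers counting error only. Transcripts were counted as unique molecular identifiers (UMIs). The db/+ library held 5676 barcodes and 44935235 UMIs, and the db/db with salt library 4751 barcodes and 40974634 UMIs. After filtering, 4884 and 4094 barcodes remained, with medians of 7048 and 7772 UMIs. Endothelial barcodes numbered 3017 (61.8%) and 2534 (61.9%), fibroblast barcodes 1254 (25.7%) and 1101 (26.9%), mural barcodes 113 and 101, and endocardial barcodes 13 and 15. All 8 endothelial markers had UMIs in the endothelial class, where they summed to 7647 UMIs per 1000000 UMIs of the class (CPM) in db/+ hearts and 8681 CPM in db/db with salt, against 178 and 137 CPM in the fibroblast class. These markers also set the classes, so this contrast follows from the rule. In the mural class the endothelial markers summed to 2635 and 2356 CPM, so the mural barcodes also carried endothelial transcripts. The libraries shared 7 barcode sequences.

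The promoters of the members differ by phase in a way that the choice of members did not use. RefSeq promoter windows (build GRCm38.p6, 250 bases before to 50 bases after the annotated start) were on hand for 28 of the 34 members, 12 S phase and 16 mitotic. They were searched on both strands for E2F motifs (TTTGGCGC, TTTCGCGC, TTTGCCGC or TTTCCCGC), CCAAT boxes (CCAAT) and CHR motifs (TTTGAA or TTTAAA). Promoters of 6 members are printed to show the 2 arrangements, as the 150 bases before the start in the direction of the gene, with motif matches on either strand in capitals. They were chosen after the letters were seen.
Ccnb1, chr13:100786487-100786636, minus strand: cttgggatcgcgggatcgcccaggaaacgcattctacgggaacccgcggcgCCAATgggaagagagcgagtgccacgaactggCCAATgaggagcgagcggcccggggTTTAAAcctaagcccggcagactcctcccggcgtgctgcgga
Ube2c, chr2:164769779-164769928, plus strand: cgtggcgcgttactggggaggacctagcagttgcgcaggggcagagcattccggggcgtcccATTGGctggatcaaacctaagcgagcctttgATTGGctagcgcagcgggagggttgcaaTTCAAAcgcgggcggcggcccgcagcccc
Kif11, chr19:37376232-37376381, plus strand: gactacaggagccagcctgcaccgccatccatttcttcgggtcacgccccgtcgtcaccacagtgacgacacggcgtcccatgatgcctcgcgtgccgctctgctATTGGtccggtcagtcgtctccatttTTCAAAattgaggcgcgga
Cdk1, chr10:69352913-69353062, minus strand: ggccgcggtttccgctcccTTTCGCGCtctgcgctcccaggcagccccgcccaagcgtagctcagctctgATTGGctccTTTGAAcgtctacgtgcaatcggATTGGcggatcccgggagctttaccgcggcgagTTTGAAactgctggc
Mcm6, chr1:128359706-128359855, minus strand: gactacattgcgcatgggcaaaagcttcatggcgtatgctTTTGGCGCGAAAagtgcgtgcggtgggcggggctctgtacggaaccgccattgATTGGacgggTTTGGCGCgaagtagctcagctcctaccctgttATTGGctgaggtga
Hells, chr19:38930840-38930989, plus strand: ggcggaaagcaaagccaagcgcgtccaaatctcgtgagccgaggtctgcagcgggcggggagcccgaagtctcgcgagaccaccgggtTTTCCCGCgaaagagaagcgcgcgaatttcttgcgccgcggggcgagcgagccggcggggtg

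In the printed mitotic promoters of Ccnb1, Ube2c, Kif11 and Cdk1, 1 or more CCAAT boxes stand upstream of a CHR motif. In Mcm6, the run TTTGGCGCGAAA holds overlapping E2F matches on both strands, and Hells holds 1 E2F match. Over all windows, an E2F motif was found in 5 of 12 S phase members (Mcm3, Mcm5, Mcm6, Mcm7 and Hells) and in 1 of 16 mitotic members (Cdk1), beside 2.32% of the 27025 genes with a window. A CHR motif was found in 14 of 16 mitotic members and 4 of 12 S phase members, beside 27.8% of all genes. CCAAT boxes were in 14 of 16 mitotic and 9 of 12 S phase members, beside 37.9% of all genes. Both a CCAAT box and a CHR motif were in 13 of 16 mitotic and 3 of 12 S phase members, beside 10.9% of all genes. A match describes letters in this window and says nothing of binding.

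**Figure D1:**
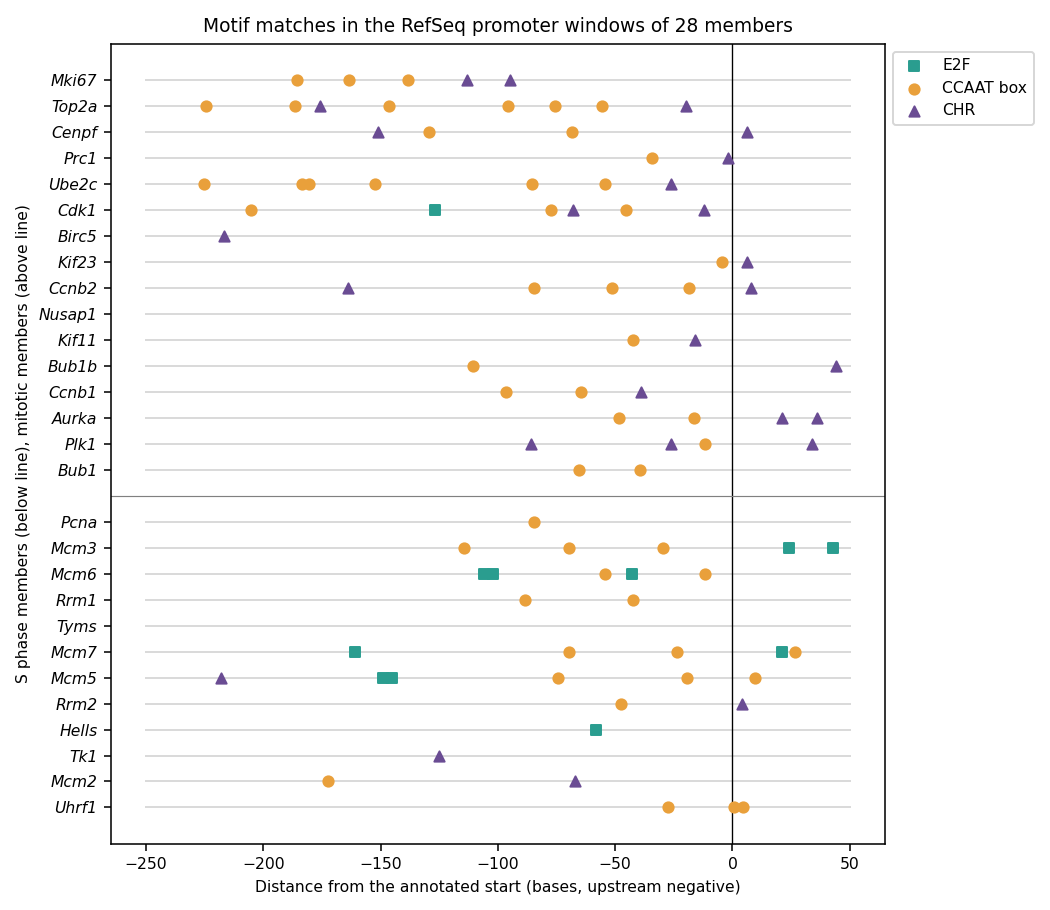
Motif matches in the promoter windows of 28 members, by distance from the annotated start in bases (upstream negative). Squares are E2F motifs, circles CCAAT boxes and triangles CHR motifs. CHR motifs lie in 14 of the 16 mitotic rows and E2F motifs in 5 of the 12 S phase rows.

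Endothelial cells line the vessels and were the largest class. In their barcodes, all 34 members were lower in the db/db with salt library than in the db/+ library. The summed UMIs of the 20 mitotic members made 625 CPM (95% Poisson interval 614 to 635) in db/+ hearts and 323 CPM (315 to 331) in db/db with salt, a log2 ratio of -0.95 (-0.997 to -0.909). The 14 S phase members summed to 341 CPM (333 to 349) and 241 CPM (234 to 248), a log2 ratio of -0.50 (-0.55 to -0.45). All 34 members had at least 30 UMIs in the libraries together, the limit for a gene to be counted as measured. Ratios of single genes are log2 of (CPM + 1) in db/db with salt over (CPM + 1) in db/+. At least 1.5-fold lower were 19 of 20 mitotic and 7 of 14 S phase members, beside a background of 3.4% of the 12155 genes measured in the class. None was at least 1.5-fold higher, beside 2.45% of all genes. The median log2 ratio was -0.87 for mitotic and -0.59 for S phase members, beside 0.07 for all measured genes.

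The mitotic members ran from a log2 ratio of -1.22 to -0.55. Among the genes of chromosome structure, Cenpf, a protein of the kinetochore, had 79.2 CPM (75.5 to 83.0) in db/+ hearts and 33.4 CPM (30.8 to 36.1) in db/db with salt, the lowest ratio of all members. Top2a, the topoisomerase that untangles copied chromosomes, had 78.7 CPM (75.02 to 82.45) and 38.8 CPM (36.0 to 41.8), a log2 ratio of -1.001. Mki67, which coats mitotic chromosomes and is the standard marker of cycling cells, had 92.3 CPM (88.3 to 96.3) and 48.9 CPM (45.8 to 52.2), a log2 ratio of -0.90. The intervals of the libraries did not overlap for any of these 3 genes. Birc5, the survivin subunit of the chromosomal passenger complex, had 36.5 and 19.7 CPM.

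Of the spindle proteins, Prc1, which bundles the microtubules of the midzone, had 54.4 CPM (51.4 to 57.5) and 29.0 CPM (26.6 to 31.6), a log2 ratio of -0.89. The spindle motors Kif11, Kif20a and Kif23 had log2 ratios of -0.90, -0.72 and -0.65, and the spindle assembly factors Tpx2 and Nusap1 had -0.89 and -0.78. Of the kinases and cyclins, Cdk1, the kinase that drives entry into mitosis, had 39.5 CPM (36.9 to 42.2) and 20.0 CPM (18.0 to 22.2), a log2 ratio of -0.94. Its partners Ccna2, Ccnb1 and Ccnb2 had -0.88, -0.73 and -0.55, and Ccnb2 was the mitotic member that did not reach 1.5-fold. The mitotic kinases Plk1, Aurka and Aurkb had -0.98, -0.87 and -0.69, and the checkpoint kinases Bub1 and Bub1b had -0.75 and -0.82. Ube2c, the enzyme that loads ubiquitin for the anaphase-promoting complex, had 48.0 CPM (45.2 to 51.0) and 23.5 CPM (21.4 to 25.9), a log2 ratio of -0.999.

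The S phase members were less even, from -1.16 to -0.16. Subunits of the replicative helicase ranged from Mcm5 (-0.85) and Mcm2 (-0.68) over Mcm4 (-0.50) and Mcm3 (-0.49) to Mcm6 and Mcm7 (both -0.31). Mcm3 had 43.0 CPM (40.3 to 45.8) in db/+ hearts and 30.4 CPM (27.9 to 33.0) in db/db with salt, and Mcm6 had 39.7 CPM (37.1 to 42.4) and 31.8 CPM (29.3 to 34.5). Mcm7 had 24.2 CPM (22.2 to 26.4) and 19.3 CPM (17.4 to 21.4). Gins2, of the complex that activates this helicase, had a log2 ratio of -0.89. Pcna, the sliding clamp of DNA polymerase, had 53.6 CPM (50.6 to 56.7) and 41.3 CPM (38.4 to 44.3), a log2 ratio of -0.37. A near-identical copy, Pcna-ps2, is listed separately, so reads of Pcna may be divided between them.

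Among the enzymes that supply nucleotides, the subunits of ribonucleotide reductase differed from each other. Rrm1 had 35.3 CPM (32.9 to 37.9) and 31.4 CPM (28.9 to 34.1), a log2 ratio of -0.16, and its intervals overlapped. Rrm2 had 13.8 CPM (12.3 to 15.4) and 8.08 CPM (6.83 to 9.49), a log2 ratio of -0.71. Thymidylate synthase (Tyms) had -0.42 and thymidine kinase (Tk1) -0.82. Uhrf1, which carries DNA methylation through replication, had 11.7 CPM (10.3 to 13.2) and 4.69 CPM (3.76 to 5.80), a log2 ratio of -1.16 and the lowest of the S phase members. Hells, a chromatin remodeller that also acts in DNA methylation, had -0.90. In GRCm38, Mki67 lies at chromosome 7, 135689784 to 135716361, Top2a at chromosome 11, 98992943 to 99024189, Cenpf at chromosome 1, 189640606 to 189688086, Rrm1 at chromosome 7, 102441695 to 102469771, and Uhrf1 at chromosome 17, 56303321 to 56323486.

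The fibroblast markers in the endothelial class moved between the libraries as well. All 8 had UMIs in both, and they summed to 84.2 CPM in db/+ and 155 CPM in db/db with salt. Their part in the members' ratios was not tested. The median depth of endothelial barcodes was 5289 and 5347 UMIs. With a pseudocount of 10 CPM in place of 1 CPM, 8 mitotic and 0 S phase members were at least 1.5-fold lower in db/db with salt. A pseudocount cannot turn the sign of a ratio, and the share of all genes past 1.5-fold was not computed with it.

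**Figure D2:**
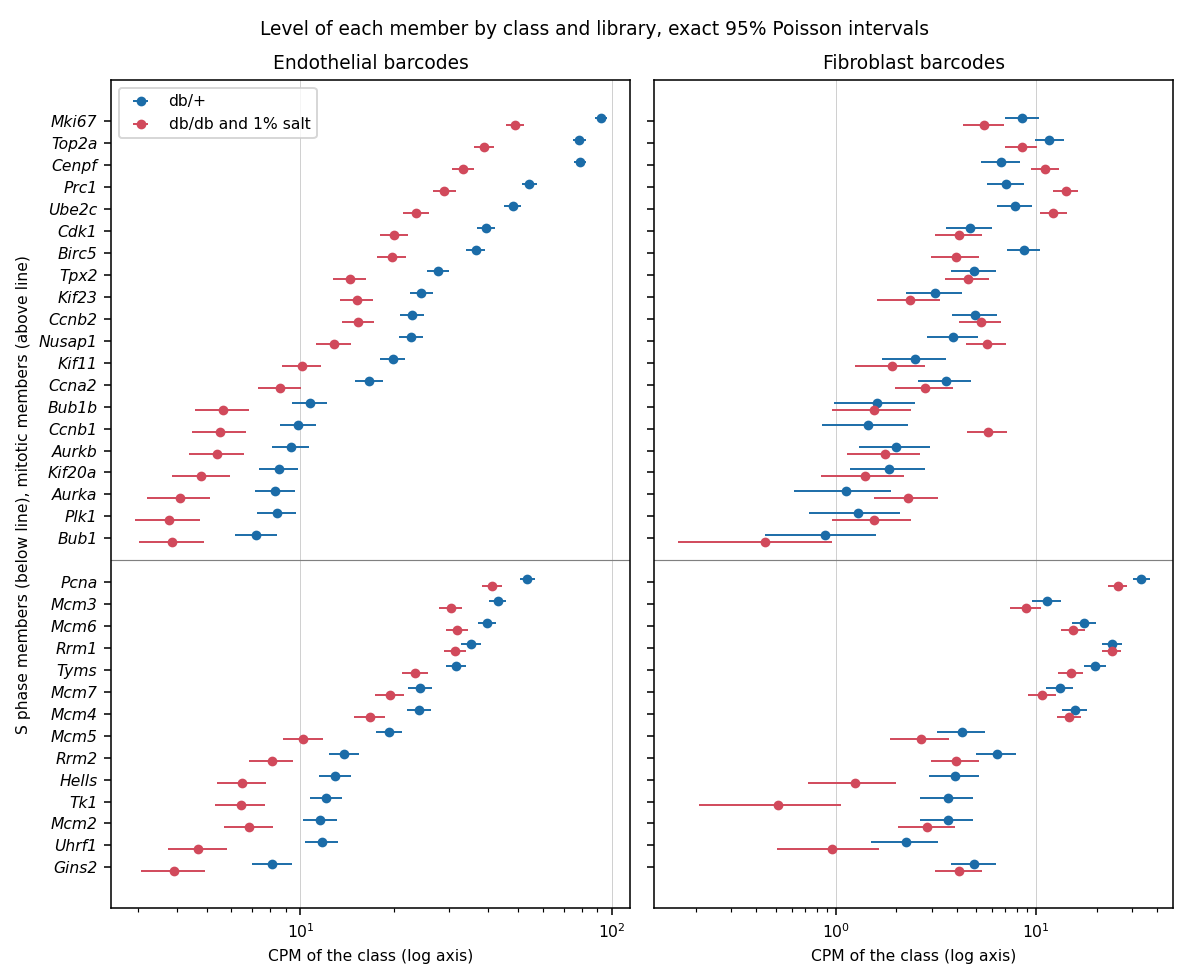
Level of each member in CPM of the class (log axes) in endothelial barcodes (left) and fibroblast barcodes (right), with exact 95% Poisson intervals. Blue points are db/+ and red points db/db with salt. In endothelial barcodes every red point lies to the left of its blue point, while in fibroblast barcodes the order varies.

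The mitotic members were detected together in few barcodes. Of 3017 endothelial barcodes of the db/+ library, 2494 had no UMI of any mitotic member and 345 had a UMI of 1 member, while 66 had UMIs of 15 or more of the 20 members and 16 of all 20. In the db/db with salt library, 2237 of 2534 had none, 228 had 1, 26 had 15 or more and 10 had all 20. Between these ends, 50 and 10 barcodes had UMIs of 3 to 9 mitotic members. The S phase members showed a gradual distribution at the low end. Of the db/+ barcodes, 857 had UMIs of 1 S phase member, 472 of 2, 380 of 3 to 6 and 123 of 7 or more, and in db/db with salt these counts were 807, 432, 271 and 36.

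**Figure D3:**
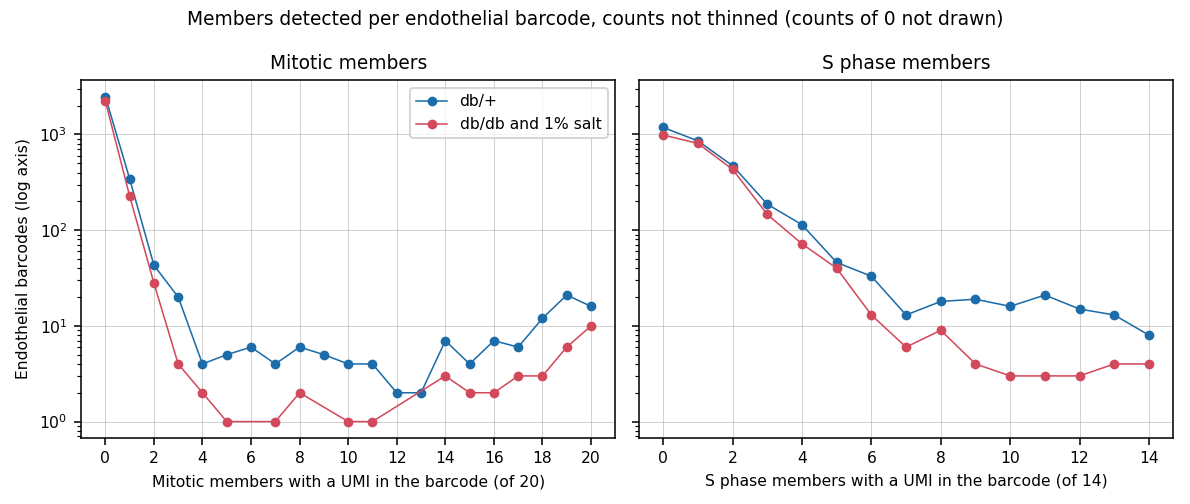
Number of endothelial barcodes (log axis) by how many mitotic members (left, of 20) or S phase members (right, of 14) had a UMI, in db/+ (blue) and db/db with salt (red). Barcodes with 15 or more mitotic members form a second rise at the right of the left panel, with 66 barcodes in db/+ and 26 in db/db with salt.

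To compare shares at equal depth, each barcode was thinned at random to 1500 UMIs, which left out 170 and 99 shallower endothelial barcodes. A barcode was called mitotic with UMIs of at least 2 mitotic members and S phase with UMIs of at least 2 S phase members. These calls are ranges of a count and not cell types. Called mitotic were 99 of 2847 endothelial barcodes in db/+ (3.48%, exact binomial interval 2.84 to 4.22%) and 36 of 2435 in db/db with salt (1.48%, 1.04 to 2.04%), and these intervals did not overlap. Exactly at the limit of 2 members were 10 and 4 barcodes, and 102 and 73 had 1 member. Without thinning, UMIs of 3 or more mitotic members were found in 135 of 3017 barcodes (4.47%) and 41 of 2534 (1.62%). S phase calls without a mitotic call were made for 134 barcodes (4.71%, 3.96 to 5.55%) and 77 barcodes (3.16%, 2.50 to 3.94%). Among the mitotic-called barcodes, 56 of 99 (56.6%, 46.2 to 66.5%) and 18 of 36 (50%, 32.9 to 67.1%) also had an S phase call, intervals that overlapped widely. Among the others, the S phase call was made for 4.88% and 3.21%.

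Shares of barcodes with a UMI followed the same order. At 1500 UMIs, Mki67 had a UMI in 3.06% (2.45 to 3.76%) of endothelial barcodes in db/+ and 1.27% (0.867 to 1.80%) in db/db with salt, and without thinning in 4.94% and 1.85%. In fibroblast barcodes at the same depth, Mki67 had a UMI in 0.325% and 0.184%. Pcna had a UMI in 7.59% (6.64 to 8.62%) and 6.41% (5.47 to 7.45%) of endothelial barcodes, which overlapped, and without thinning in 24.7% and 21.5%. The share was lower in db/db with salt for 18 of 20 mitotic members, Aurka and Plk1 being the others, and for 14 of 14 S phase members. The intervals were apart for 7 mitotic and 3 S phase members. Neither count was made over all genes, so no background stands beside them.

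Where the UMIs of each member lay was asked next, with the member itself left out of the call. Barcodes called mitotic by the other members held 7.28 to 7.72% of all UMIs of the thinned endothelial barcodes in db/+ and 3.28 to 3.41% in db/db with salt. They held a median of 94.6% of the UMIs of a mitotic member in db/+ (range 79.2 to 98.1%) and of 94.7% in db/db with salt (70.9 to 98.1%). Ccnb1 stood near the top with 98.1% and 98.0%, and the lowest were Bub1b (79.2% and 81.6%), Kif23 (81.8% and 70.9%) and Cdk1 (83.0% and 78.7%). For S phase members the median was 34.05% and 23.6%. Rrm2 (87.8% and 79.7%), Tk1 (84.0% and 91.5%) and Uhrf1 (60.6% and 74.4%) were the S phase members with most of their UMIs in mitotic-called barcodes of both libraries. The lowest were Mcm6 (15.04% and 10.6%), Pcna (18.2% and 11.1%) and, in db/db with salt, Mcm4 (22.5% and 9.30%). The subunits of ribonucleotide reductase thus stood apart, with 35.6% and 20.2% for Rrm1.

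**Figure D4:**
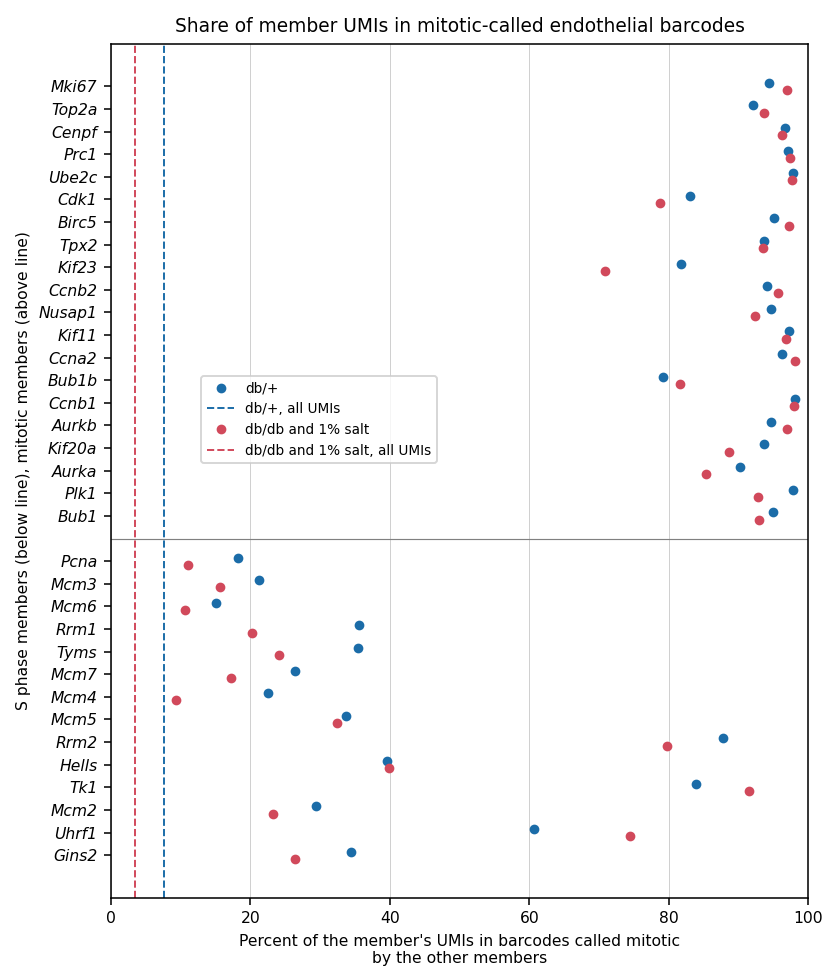
Percent of each member's UMIs, on the horizontal axis, that lay in endothelial barcodes called mitotic by the other members, in db/+ (blue) and db/db with salt (red). Dashed lines mark the share of all UMIs in these barcodes. Mitotic members lie at 70.9% or more, and of the S phase members Rrm2, Tk1 and Uhrf1 at 60.6% or more.

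Inside and outside these barcodes, the ratio between libraries had opposite signs for most members. Inside the mitotic-called barcodes, Mki67 had 1182 CPM in db/+ and 1401 CPM in db/db with salt, and outside them 5.65 and 1.54 CPM. Top2a had 999 and 1115 CPM inside and 6.73 and 2.56 CPM outside, and Cenpf had 1005 and 958 CPM inside and 2.86 and 1.31 CPM outside. The median log2 ratio of the 20 mitotic members was 0.26 inside (range -0.07 to 0.59) and -0.49 outside (-1.39 to 0.10), with Cenpf and Plk1 below 0 inside and Plk1 above 0 outside. For the 14 S phase members the median was 0.19 inside (-0.63 to 0.39) and -0.41 outside (-1.42 to 0.07). Mcm4 (-0.63) and Gins2 (-0.25) were below 0 inside, and Rrm1 (0.07) was the S phase member above 0 outside. Outside levels of mitotic members were low, with a median of 1.40 CPM in db/+ and 0.654 CPM in db/db with salt. Most of the outside ratios of mitotic members thus rest on few UMIs. Many S phase members had more UMIs outside, such as Pcna with 965 and 667, but Tk1 had 43 and 10. The calls were made on thinned counts and the levels on full counts, so barcodes with mitotic members that the call missed stayed outside. Without thinning, 135 and 41 barcodes had UMIs of 3 or more mitotic members, while 99 and 36 were called. Mki67 kept 115 and 27 UMIs outside. The part of missed barcodes in the outside ratios was not tested. The ratios inside and outside were not computed over all genes, so whether the signs are particular to the members was not tested.

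Mitotic-called barcodes with and without an S phase call were compared within each library, again without the member's own UMIs in the call. All 14 S phase members were lower in the barcodes called mitotic only, in both libraries, with log2 ratios from -2.23 to -0.87 in db/+ and from -2.82 to -0.70 in db/db with salt. Since S phase members are called together, such an order follows in part from the other S phase members. The intervals of the level were apart in both libraries for 12 of the 14. Of the 20 mitotic members, 4 were higher in the mitotic-only barcodes of both libraries with intervals apart (Ccnb1, Ccnb2, Ube2c and Cenpf) and 4 were lower in the same way (Top2a, Mki67, Kif11 and Nusap1). For 8 members the intervals overlapped in both libraries, among them Aurka, Aurkb, Tpx2 and Bub1b. The share of all genes with intervals apart between these barcodes was not computed. Ccnb1 had 95.7 CPM with an S phase call and 162 CPM without one in db/+, and 107 and 203 CPM in db/db with salt. Ccnb2 had 234 and 371 CPM in db/+ and 286 and 566 CPM in db/db with salt. In the other direction, Top2a had 1219 CPM with an S phase call and 740 CPM without one in db/+, and 1511 and 806 CPM in db/db with salt. Plk1 had log2 ratios of 0.65 in db/+ and -0.37 in db/db with salt, where its intervals overlapped.

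**Figure D5:**
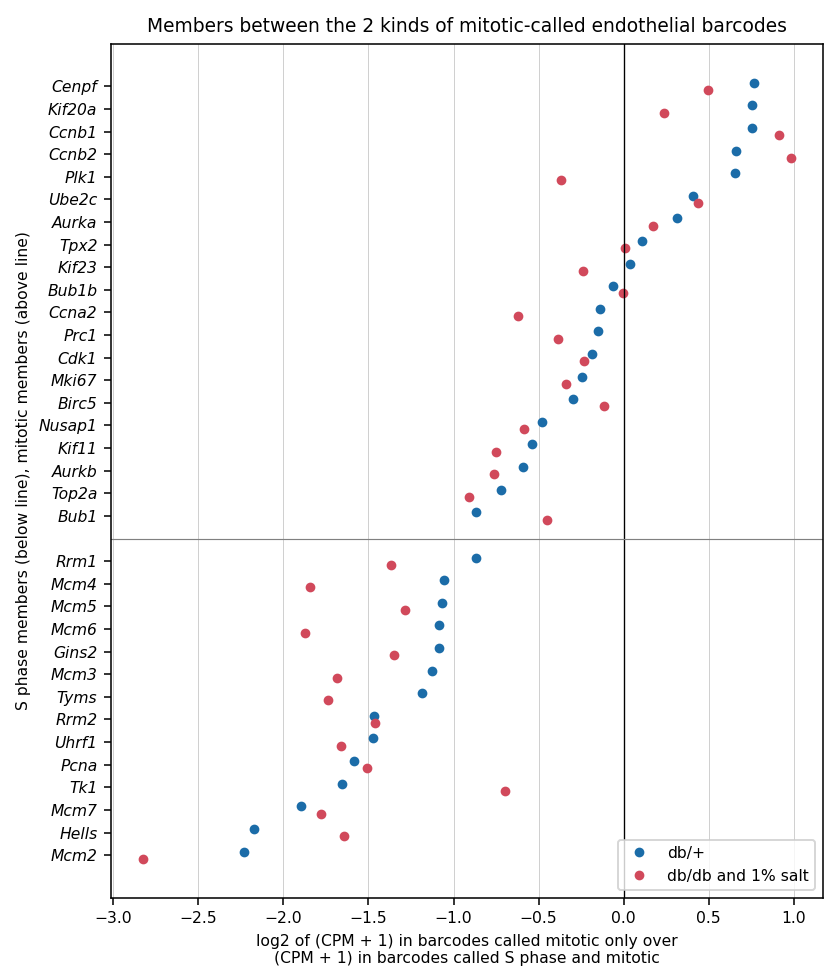
Log2 ratio of each member between endothelial barcodes called mitotic only and those called S phase and mitotic, in db/+ (blue) and db/db with salt (red). All S phase members lie left of 0. Mitotic members run from Bub1 and Top2a on the left to Cenpf, Ccnb1 and Ccnb2 on the right.

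Endothelial barcodes with UMIs of 3 or more mitotic members, 135 in db/+ and 41 in db/db with salt, were deeper than the rest. Their median was 15451 UMIs against 5121 in db/+, and 18244 against 5296 in db/db with salt. A rule of 3 members on counts that were not thinned favours deep barcodes, so this gap follows in part from the choice. The barcodes with 3 or more mitotic members held a median of 57 and 93 mitotic UMIs. Endothelial markers summed to 6639 CPM in them against 7766 CPM in the other endothelial barcodes of db/+, and to 6929 against 8758 CPM in db/db with salt. Leukocyte markers had 3 and 0 UMIs in them, but barcodes rich in these markers had been left out of the class by rule. Erythroid markers summed to 2175 CPM against 3034 CPM in db/+ and to 15.6 CPM (12 UMIs) against 2735 CPM in db/db with salt, and their part was not tested. An erythroid marker had a UMI in an average of 2.66% of endothelial barcodes in db/+ and 2.08% in db/db with salt. These sums thus rest on few barcodes and are no level of the whole class.

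Against barcodes with no member UMI (1076 and 925, median depths 3549 and 3817 UMIs), the 10 genes outside the members with the highest ratio in db/+ were Cenpe, Hist1h1b, Hmmr, Pimreg, Pclaf, Pbk, Knl1, Cdca8, Anln and Sgo2a. Of these, 6 were in the lists of other cell cycle genes. Hist1h1b, a linker histone, had 655 CPM against 1.81 CPM in db/+ and 1202 against 1.48 CPM in db/db with salt. Cenpe, a kinetochore motor, had 263 CPM in the mitotic barcodes with 0 UMIs in the others of db/+, and 286 against 0.246 CPM in db/db with salt. Of the further G2 and mitotic genes, 27 of 28 were at least 1.5-fold higher in the mitotic barcodes of both libraries, beside 13.9% of all measured genes in db/+ and 16.1% in db/db with salt. The exception was Pttg1, the securin that guards sister chromatids, with 50.9 against 90.5 CPM in db/+ and 71.4 against 93.2 CPM in db/db with salt. Both sets of barcodes were picked by member UMIs. Higher levels of genes that rise with the members thus follow from the choice, here and in the lists that follow. Some genes reached the limit of 30 UMIs in db/+ only through the mitotic barcodes, such as Hmmr with 459 UMIs there and 0 in the others.

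Inhibitors of cyclin-dependent kinases stood on both sides. Cdkn2c had 159 CPM in the mitotic barcodes against 11.8 CPM in db/+, and Cdkn2d had 160 against 27.4 CPM. In db/db with salt, Cdkn2c had 187 against 25.6 CPM and Cdkn2d 201 against 29.7 CPM. Cdkn1c had 120 CPM against 457 CPM in db/+ and 144 against 494 CPM in db/db with salt. Of the transcription factors of the cycle, Foxm1, which drives G2 genes, had 51.7 against 1.81 CPM and 50.6 against 0.738 CPM. E2f8, an E2F repressor, had 29.5 and 41.5 CPM in the mitotic barcodes with 0 UMIs in the others of both libraries. All 12 chromatin and tubulin genes were at least 1.5-fold higher in both libraries, among them Lmnb1, a lamin of the nuclear envelope, with 288 against 7.47 CPM in db/+ and 349 against 8.85 CPM in db/db with salt. Of the D cyclins in db/+, Ccnd1 had 826 against 580 CPM, Ccnd2 133 against 245 CPM and Ccnd3 148 against 147 CPM. In db/db with salt, Ccnd1 had 602 against 428 CPM, Ccnd2 57.1 against 152 CPM and Ccnd3 169 against 133 CPM. Ccnd1 and Ccnd3 did not reach 1.5-fold in either library. Ccnd2 was at least 1.5-fold lower in both, beside 10.7% of all measured genes in db/+ and 21.6% in db/db with salt.

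In fibroblast barcodes, the cells that build the connective tissue of the heart, the mitotic members summed to 88.0 CPM (82.9 to 93.4) in db/+ hearts and 96.6 CPM (91.4 to 102) in db/db with salt, a log2 ratio of 0.13 (0.02 to 0.25). This sum rests on single barcodes: 2 barcodes held 86.3% of the 1316 mitotic UMIs in db/db with salt, each with UMIs of all 20 members and with depths of 69092 and 23916 UMIs. In db/+ the 2 leading barcodes held 45.2% of 1098 mitotic UMIs. Without the 2 leading barcodes of each library, an alternative chosen after the data were seen, the log2 ratio of the sum was -1.79. Of the 19 mitotic members measured (Bub1 was not), 4 were at least 1.5-fold higher, beside 2.92% of the 12345 genes measured in the class, and 1 was at least 1.5-fold lower, beside 2.78%. The 4 were Ccnb1, Prc1, Cenpf and Aurka. Ccnb1 had 1.44 CPM (0.855 to 2.28) and 5.73 CPM (4.53 to 7.15), a log2 ratio of 1.46, and 89.7% of its UMIs in db/db with salt lay in 1 barcode. Without the leading barcodes it had 9 UMIs in db/+ and 1 in db/db with salt. Prc1 turned from 0.91 to -0.44 and Cenpf from 0.66 to -1.58, and Aurka was left with 6 and 3 UMIs. Since the barcodes left out held 86.3% of the mitotic UMIs in db/db with salt and 45.2% in db/+, their removal by itself lowers these ratios.

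S phase UMIs of fibroblast barcodes were spread more widely. The 12 barcodes of db/+ with 3 or more mitotic members held 86.1% of mitotic and 18.8% of S phase UMIs, and the 4 such barcodes of db/db with salt held 86.8% and 2.65%. The S phase members summed to 163 CPM (156 to 170) and 130 CPM (124 to 136), a log2 ratio of -0.32 (-0.42 to -0.23). At least 1.5-fold lower were 3 of 14, beside 2.78% of all measured genes. These were sparse members: Tk1 had 45 and 7 UMIs, Hells 49 and 17, and Uhrf1 28 and 13. Without the 2 leading barcodes of each library, Tk1 had 24 and 3 UMIs and was no longer measured. In barcodes with under 3 mitotic members the S phase sums were 134 and 128 CPM, so that most of the gap lay in the 12 and 4 barcodes. Tk1 had 3.61 CPM (2.63 to 4.83) and 0.514 CPM (0.207 to 1.06), a log2 ratio of -1.61. Hells had 3.93 CPM (2.91 to 5.19) and 1.25 CPM (0.727 to 1.998), a log2 ratio of -1.13, and Uhrf1 had -0.73. Rrm1 had 23.8 CPM (21.2 to 26.7) and 23.9 CPM (21.3 to 26.6), levels that overlapped. At 1500 UMIs per barcode, mitotic calls were made for 8 of 1232 fibroblast barcodes in db/+ (0.649%, 0.281 to 1.28%) and 2 of 1089 in db/db with salt (0.184%, 0.022 to 0.662%), and these intervals overlapped. S phase calls without a mitotic call were made for 32 barcodes (2.60%, 1.78 to 3.65%) and 10 barcodes (0.918%, 0.441 to 1.68%). The size of this gap moved with the random draw: over 4 further thinnings, added after the data were seen, the share was 1.46 to 2.03% in db/+ and 1.10 to 1.47% in db/db with salt. Without thinning the order was reversed, with 30.7% and 38.4% at median fibroblast depths of 9629 and 11981 UMIs.

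Mural cells, the pericytes and smooth muscle cells around vessels, gave few member UMIs. No mitotic member reached 30 UMIs, and the 20 members together had 92 UMIs in db/+ and 13 in db/db with salt. Of the 92, 69 lay in 1 barcode, which had UMIs of 13 members, and in db/db with salt 13 of 20 members had 0 UMIs and no barcode had more than 2 members. Of the S phase members, 5 of 14 were measured and 1 of them, Pcna, was at least 1.5-fold lower, beside 8.11% of 7667 genes, and 0 were at least 1.5-fold higher, beside 6.56%. Pcna had 42.2 CPM (30.6 to 56.9) and 27.1 CPM (17.2 to 40.7), a log2 ratio of -0.62. Rrm1 had -0.56 from 20 and 11 UMIs and Mcm6 -0.47 from 27 and 16 UMIs, and the intervals overlapped for all 3 genes.

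Endocardial cells line the chambers, and their 13 and 15 barcodes gave 8 and 2 mitotic UMIs and 33 and 37 S phase UMIs. No member was measured, so no ratio is given. In these barcodes, 14 of 20 mitotic members had 0 UMIs in db/+ and 18 of 20 in db/db with salt, where a count of 0 allows up to 24.6 and 15.1 CPM (3 counts). A wider rule with 2 of 6 endocardial markers, chosen after the data were seen, gave 34 and 31 barcodes, of which 2 and 0 had UMIs of 3 or more mitotic members.

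Lists of other cell cycle genes were read beside the members in endothelial barcodes. Most of the further G2 and mitotic genes were higher in the barcodes with mitotic members, so their count is not separate from that of the members. Of 28 further G2 and mitotic genes, 21 were at least 1.5-fold lower in db/db with salt and 0 higher, with a median log2 ratio of -0.78, beside 3.4% lower, 2.45% higher and a median of 0.07 over all measured genes. Hmmr, a spindle protein, had 20.9 CPM (19.0 to 22.8) and 8.19 CPM (6.93 to 9.61), a log2 ratio of -1.25, and Cenpe had 29.2 and 13.4 CPM. Of 22 further S phase genes, 8 were lower and 0 higher, with a median of -0.44. Mcm10 and Dtl, which load and clear replication factors, had log2 ratios of -1.17 and -1.03, with 66 and 14 UMIs for Mcm10. Of the E2F, RB and DREAM factors 3 of 22 were lower, E2f1 (-1.25), Foxm1 (-1.05) and E2f2 (-0.77), with a list median of 0.02. E2f1 had 8.53 CPM (7.36 to 9.84) and 3.002 CPM (2.26 to 3.91).

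The other lists had smaller counts, several of them near the 3.4% lower and 2.45% higher of all measured genes. Of 11 cyclins and kinases of G1, 1 was lower, the D cyclin partner Cdk6 with 39.0 CPM (36.5 to 41.7) and 24.0 CPM (21.8 to 26.3), and the list median was -0.40. The D cyclin Ccnd1 had 728 CPM (717 to 739) and 520 CPM (509 to 530), a log2 ratio of -0.49. Of 7 CDK inhibitors 0 were lower and 1 was higher, Cdkn2b with 1.13 CPM (0.730 to 1.67) and 2.84 CPM (2.12 to 3.72), and the list median was 0.01. Of 12 checkpoint and p53 genes 2 were lower, Cdc25b and Chek1, and Trp53 had a log2 ratio of -0.40. Of 12 chromatin and tubulin genes 1 was lower, Lmnb1, with 38.6 and 23.1 CPM. In fibroblast barcodes, 5 of 22 measured further G2 and mitotic genes were lower and 1 was higher, Cdc20, the activator of the anaphase-promoting complex, beside 2.78% and 2.92% of all measured genes.

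The balance between phases was compared within each library, where the size of a class cancels. In endothelial barcodes there were 0.546 S phase UMIs per mitotic UMI (0.531 to 0.561) in db/+ hearts and 0.747 (0.718 to 0.776) in db/db with salt. This order held at 1500 UMIs per barcode, with 0.941 and 1.35. The balance mixes barcodes with and without mitotic members, so it also moves with the share of mitotic barcodes. In endothelial barcodes with UMIs of 3 or more mitotic members, S phase members summed to 1310 CPM and mitotic members to 5712 CPM in db/+. In db/db with salt these sums were 1465 and 7253 CPM, so the higher balance of the class was not seen within these barcodes. In fibroblast barcodes the balance was 1.85 (1.72 to 1.995) and 1.35 (1.25 to 1.45), and without the 2 leading barcodes of each library it was 3.25 and 9.59, the opposite order.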

How the data were processed

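Per the file headers, the deposited matrices were written by Cell Ranger 6.0.2 and hold raw UMI counts per gene and barcode. Seurat and the build GRCm38 (mm10) are named in the submitters' processing notes. The role of Seurat was not given in the sources used here. Hearts were digested with collagenase, per the labels' protocols, strained through 40, 30 and 20 µm filters, depleted of CD45+ cells and loaded for 10000 cells per library.

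Barcodes with at most 10% mitochondrial UMIs and at least 500 genes were kept, and Scrublet (scanpy 1.11.5, 0.8% per 1000 cells) removed 64 and 50 doublets (1.29% and 1.21%). A barcode was classed by its leading marker list (endothelial 8, fibroblast 8, mural 12 markers) with at least 5 UMIs from at least 3 markers and at least 80% of the UMIs of these lists. Barcodes with other cell types' markers were left out. Endocardial barcodes were endothelial ones with at least 3 of 6 endocardial markers, Npr3 or Cytl1 among them. In all, 352 and 243 barcodes were mixed or low and 135 and 100 of other types.

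UMIs were summed per class and library and given as CPM of the class, with a pseudocount of 1 CPM in ratios, a limit of 30 UMIs and a call at 1.5-fold. With 1 library per group no test was made. Intervals are exact 95% Poisson or Clopper-Pearson intervals for counting error only, and UMIs of 1 barcode are not independent, so they are too narrow for levels. Python 3.11.15, numpy 2.4.6, scipy 1.17.1 and pandas 2.3.3 were used, and edgeR 4.0.16 gave TMM factors as an alternative scaling. The steps were tested on simulated data. Gene positions are from GENCODE for GRCm38 and promoters from RefSeq GRCm38.p6.

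The members, lists and markers were chosen with earlier results of these data known. Single members are named where they have most UMIs (4 S phase, 6 mitotic) or the 3 highest or lowest ratios in endothelial barcodes, or the 3 largest ratios in other classes. From each other list up to 4 genes with the largest ratio are named, and 10 genes with the highest ratio in mitotic barcodes of db/+ among genes with at least 100 CPM there. Other genes were named after their values were seen.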

Additional observations from a re-analysis of the deposited data

Results flagged for a closer look

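For 4 mitotic members the 1.5-fold call in fibroblast barcodes had the opposite sign to that in endothelial barcodes. The log2 ratio of db/db with salt over db/+ was 1.46 in fibroblast and -0.73 in endothelial barcodes for Ccnb1. It was 0.91 and -0.89 for Prc1, 0.66 and -1.22 for Cenpf, and 0.63 and -0.87 for Aurka. The difference between the classes was not tested, since each class has 1 library per group. In fibroblast barcodes of db/db with salt, the leading barcode held 89.7% of the UMIs of Ccnb1, 69.3% of Prc1, 82.1% of Cenpf and 74.2% of Aurka.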

How the results depend on the processing

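Under each of 10 alternatives for the endothelial ratios, every measured member stayed lower in db/db with salt. A pseudocount or a limit on UMIs or CPM cannot turn the sign of a ratio. The alternatives that changed only these were no check of direction. No paired analysis was possible because each group has 1 library. The share of all genes past 1.5-fold was computed for the main settings only, so counts under the alternatives have no background. All other values below are in the order db/+, then db/db with salt, unless a single log2 ratio or count is given, and the cause of the shifts was not tested unless the construction shows it.

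With a pseudocount of 10 CPM, 8 mitotic and 0 S phase members and 4 genes of the other lists were at least 1.5-fold lower in endothelial barcodes and 0 other list genes higher. In fibroblast barcodes 0 mitotic members were lower, 0 higher, and 0 S phase members lower. With 0.1 CPM, 2 mitotic and 5 S phase members were lower in fibroblast barcodes. TMM scaling, which moved the median of all endothelial genes by -0.085, gave summed log2 ratios of -1.04 (mitotic) and -0.59 (S phase). With only genes of at least 10 CPM on average, fewer genes remained: 12 mitotic, 2 S phase and 13 other list genes were lower and 0 other list genes higher in endothelial barcodes, and 0 mitotic lower, 1 higher and 0 S phase lower in fibroblast barcodes.

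With up to 20% mitochondrial UMIs, the endothelial S phase to mitotic balance in db/db with salt was 0.785, fibroblast barcodes were 24.1% and 24.99%, and mural barcodes 3.02% and 3.01%. With at least 50% of marker UMIs, the summed mitotic log2 ratio was -1.0003 in endothelial and -4.26 in mural barcodes, 2 mitotic and 5 S phase members were lower in fibroblast barcodes, and the fibroblast balance in db/+ was 1.65. Endothelial barcodes were then 63.6% and 63.7%, mural 5.16% and 4.62%, and endocardial 0.758% and 0.928%. With at least 95%, the summed mitotic log2 ratio was -0.80 in endothelial, 0.61 in fibroblast and -1.26 in mural barcodes, 0 mitotic members were lower in fibroblast barcodes, and the balance was 0.564 and 0.684 in endothelial barcodes and 2.46 in db/+ fibroblast barcodes. Endothelial barcodes were then 52.0% and 48.2%, fibroblast 24.3% in db/+, mural 0.328% and 0.586%, and endocardial 0.0977% in db/db with salt.

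Thinned to 3000 UMIs, mitotic calls were 4.85% of db/+ endothelial barcodes, S phase only calls 11.0% and 8.66% (endothelial) and 7.29% and 5.38% (fibroblast), barcodes with Mki67 4.43% in db/+, and with Pcna 12.7% and 11.3%. Without thinning, mitotic calls were 5.90% and 2.72% (endothelial) and 1.83% and 1.54% (fibroblast), S phase only calls 27.6% and 27.0% (endothelial) and 30.7% and 38.4% (fibroblast), Mki67 4.94% and 1.85%, and Pcna 24.7% and 21.5%. With 3 members, S phase only calls were 1.48% and 0.534% (endothelial) and 0.568% and 0% (fibroblast). With 1 member, mitotic calls were 7.06% and 4.48% (endothelial) and 2.52% and 2.66% (fibroblast), and S phase only calls 24.7% and 22.4% (endothelial) and 19.2% and 15.5% (fibroblast). The balance was 0.941 and 1.35 (endothelial) and 3.20 and 3.08 (fibroblast) at 1500 UMIs, and 0.750 and 1.40 (endothelial) and 2.61 and 3.93 (fibroblast) at 3000 UMIs. With calls from 3 other members, mitotic-called barcodes held 91.4% and 92.6% (mitotic) and 28.1% and 20.5% (S phase) of member UMIs.

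Alternatives added after the data were seen follow. Without the 2 barcodes of each class and library with most mitotic UMIs, the summed mitotic log2 ratio was -1.04 in endothelial, -1.79 in fibroblast and -0.78 in mural barcodes, 7 of 9 mitotic members still measured were lower and 0 higher in fibroblast barcodes, and Cenpf (-1.58) and Prc1 (-0.44) were reversed there. The balance was then 0.569 and 0.849 (endothelial) and 3.25 and 9.59 (fibroblast). Of 4 further thinnings, 2 gave S phase only calls of 1.46% and 1.54% in db/+ fibroblast barcodes. A call from 3 mitotic members without thinning gave 4.47% in db/+ endothelial barcodes. With 2 of 6 endocardial markers, 0.696% and 0.757% of barcodes were endocardial. Of the values that answer a comparison, 217 stayed within their interval or within 1.5-fold of the main count, and 105 did not. In the mural and endocardial classes, with 113 and 101 and with 13 and 15 barcodes, 0 mitotic members reached 30 UMIs.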

Other observations

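Barcodes led by mural and endothelial markers, that did not meet the rule for either class, were in none of the classes described. UMIs of 3 or more mitotic members were found in 12 of 224 of them in db/+ (5.36%, exact binomial interval 2.80 to 9.17%) and in 1 of 158 in db/db with salt (0.633%, 0.016 to 3.48%). Their mitotic members summed to 526 CPM (500 to 554) and 40.0 CPM (32.3 to 49.0), and their S phase members to 272 and 172 CPM. Their median depths were 11531 and 13055 UMIs, above those of endothelial and mural barcodes, and whether each held 1 cell was not tested.

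Scrublet doublets with UMIs of 3 or more mitotic members numbered 2 of 64 in db/+ and 0 of 50 in db/db with salt, while 178 and 50 barcodes with such UMIs were kept over all classes.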
